A study of Mus musculus with 4 samples.

Results

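Cycling epithelial cells were examined in single-cell RNA libraries of mouse mammary glands and mammary tumors. A cell counted as cycling when it held at least 1 raw UMI (a unique molecular identifier, the tag that marks 1 captured RNA molecule) in 3 or more of 15 genes of the G2 and M phases: Mki67, Top2a, Cdk1, Ccnb1, Ccnb2, Cdc20, Birc5, Ube2c, Tpx2, Cenpf, Cenpa, Nusap1, Aurka, Plk1 and Bub1. The rule found 247 of 15445 annotated cells. They were 58 of 3818 cells in PKA hyperplasia, 71 of 3808 in WT hyperplasia, 25 of 2638 in PKA tumor and 93 of 5181 in WT tumor. All mice carried MMTV-PyMT, a transgene in which a mouse mammary tumor virus promoter drives the polyoma middle T oncogene in mammary epithelium. The PKA mice had in addition an activated protein kinase A, by means the labels do not state, and the WT mice did not. The mice with hyperplasia were 8 to 9 weeks old, and those with tumors 16 to 20 weeks old per the sample labels, whereas the series design gives 22 weeks. Each of the 4 groups was 1 library, and the labels do not state how many mice went into it. No test between groups was therefore possible: intervals below are exact 95% intervals that cover counting error alone, and the spread between mice is unknown.

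A dividing cell copies its DNA in S phase, prepares for division in G2 and separates its chromosomes in M phase. Cyclin B and the kinase Cdk1 drive entry into mitosis, Top2a untangles the copied DNA, Cenpa and Cenpf sit at the centromere, and the ubiquitin ligase activator Cdc20 and the ubiquitin-conjugating enzyme Ube2c help to end mitosis by marking cyclin B for destruction. Birc5 and the kinases Plk1, Aurka and Bub1 act on spindle and kinetochores, and Mki67 coats mitotic chromosomes. Many such genes are repressed in resting cells and active late in the cycle through promoter elements bound by the DREAM and MuvB complexes, among them the CHR element, and through CCAAT boxes bound by NF-Y. In the mammary epithelium, luminal progenitors are milk-lineage cells, mature luminal cells carry hormone receptors, and basal cells form the contractile outer layer.

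The promoters of the 4 genes taken as markers of the cycling cells, and of Aurka, whose UMIs lay elsewhere than those of the other genes, are shown from RefSeq (build GRCm38.p6), from 250 bases before to 50 bases after the start site, 5′ to 3′ on the gene's strand. Capitals mark the CHR letters TTTGAA and the letters CCAAT, each on either strand (TTCAAA and ATTGG on the other).
Mki67, chr7:135716330-135716629, minus strand: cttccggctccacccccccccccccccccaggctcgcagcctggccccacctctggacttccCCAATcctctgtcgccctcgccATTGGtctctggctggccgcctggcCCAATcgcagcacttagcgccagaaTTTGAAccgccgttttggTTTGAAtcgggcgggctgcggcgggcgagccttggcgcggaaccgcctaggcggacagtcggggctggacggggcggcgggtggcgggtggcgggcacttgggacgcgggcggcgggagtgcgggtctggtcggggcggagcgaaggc
Top2a, chr11:99024140-99024439, minus strand: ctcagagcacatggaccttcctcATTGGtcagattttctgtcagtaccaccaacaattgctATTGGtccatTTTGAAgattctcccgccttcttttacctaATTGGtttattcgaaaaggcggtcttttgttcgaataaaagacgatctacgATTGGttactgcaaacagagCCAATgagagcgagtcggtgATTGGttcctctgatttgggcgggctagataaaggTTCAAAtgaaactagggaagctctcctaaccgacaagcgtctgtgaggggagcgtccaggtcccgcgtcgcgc
Cdk1, chr10:69352863-69353162, minus strand: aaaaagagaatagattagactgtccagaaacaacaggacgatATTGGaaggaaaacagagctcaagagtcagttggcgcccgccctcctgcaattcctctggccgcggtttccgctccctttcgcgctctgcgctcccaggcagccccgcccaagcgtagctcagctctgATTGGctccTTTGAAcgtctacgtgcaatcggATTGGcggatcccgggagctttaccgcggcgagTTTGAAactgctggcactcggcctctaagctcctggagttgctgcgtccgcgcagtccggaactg
Birc5, chr11:117848987-117849286, plus strand: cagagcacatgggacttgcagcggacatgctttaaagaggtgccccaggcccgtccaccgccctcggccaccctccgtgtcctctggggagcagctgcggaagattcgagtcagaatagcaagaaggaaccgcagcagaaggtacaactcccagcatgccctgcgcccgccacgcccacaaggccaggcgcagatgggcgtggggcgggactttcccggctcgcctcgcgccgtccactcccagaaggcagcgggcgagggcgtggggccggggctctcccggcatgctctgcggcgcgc
Aurka, chr2:172370521-172370820, minus strand: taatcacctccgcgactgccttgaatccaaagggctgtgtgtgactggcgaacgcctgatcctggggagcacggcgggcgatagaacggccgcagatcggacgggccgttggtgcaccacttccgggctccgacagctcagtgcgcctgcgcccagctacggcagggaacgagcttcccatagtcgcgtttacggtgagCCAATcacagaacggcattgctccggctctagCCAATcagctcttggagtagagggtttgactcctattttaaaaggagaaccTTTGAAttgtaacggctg
A RefSeq promoter was found for 14 of the 15 genes, all but Tpx2. TTTGAA occurred in 10 of these 14 windows, against 20.2% of 27025 promoters of the same length. CCAAT occurred in 12 of 14, against 41.1% of all promoters. Both occurred in 10 of 14, against 7.97%. Ccnb1, Birc5, Nusap1 and Bub1 held no TTTGAA in this window, and Birc5 and Nusap1 held neither element. A match is a description of the letters and not a measured binding site.

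Annotated cells of the 4 libraries had medians of 2557, 2637.5, 5890.5 and 4391 UMIs in PKA and WT hyperplasia and PKA and WT tumor. Cycling cells were deeper than that, with medians of 4735, 4693, 11145 and 8246 UMIs, and 43.1%, 36.6%, 48.0% and 44.1% of them held over 2 times their library's median. The same was true of 4.43%, 4.45%, 6.04% and 3.78% of cells with none of the 15 genes. Doublets were neither called nor removed here, and their part in these deep cells was not tested. Each cycling cell was therefore paired with 1 cell of its own library that held none of the 15 genes and had nearly the same total UMIs, which was possible for all 247 cells with a gap of at most 2.32%. Cell classes are the authors', assigned with Monocle2 from marker genes per the series design, and whether cycle genes entered that assignment is not stated. Between 16 and 24 barcodes were shared by each pair of libraries, and no cycling cell was among them.

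Cycling cells made up 1.52% of PKA hyperplasia cells (58 of 3818, 1.16 to 1.96%), against 1.86% of WT hyperplasia cells (71 of 3808, 1.46 to 2.35%). In tumors they made up 0.948% of PKA cells (25 of 2638, 0.614 to 1.40%), against 1.80% of WT cells (93 of 5181, 1.45 to 2.19%). The share in PKA tumor was 0.528 times that in WT tumor (0.325 to 0.828), and the share in PKA hyperplasia 0.815 times that in WT hyperplasia (0.566 to 1.17). The rule needs UMIs in 3 genes, so depth sets part of each share. When every cell was cut down at random to 2000 UMIs, which drops 1148, 1090, 187 and 428 cells with fewer, the shares were 1.46%, 1.77%, 0.612% and 1.07% in PKA and WT hyperplasia and PKA and WT tumor. The PKA over WT fold was then 0.827 (0.528 to 1.29) in hyperplasia and 0.570 (0.298 to 1.03) in tumor, so that the tumor interval reached 1. Cells with exactly 3 of the 15 genes numbered 12, 12, 4 and 16 in the 4 libraries in the same order, and those with exactly 2, just outside the rule, 29, 34, 18 and 61.

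**Figure D1:**
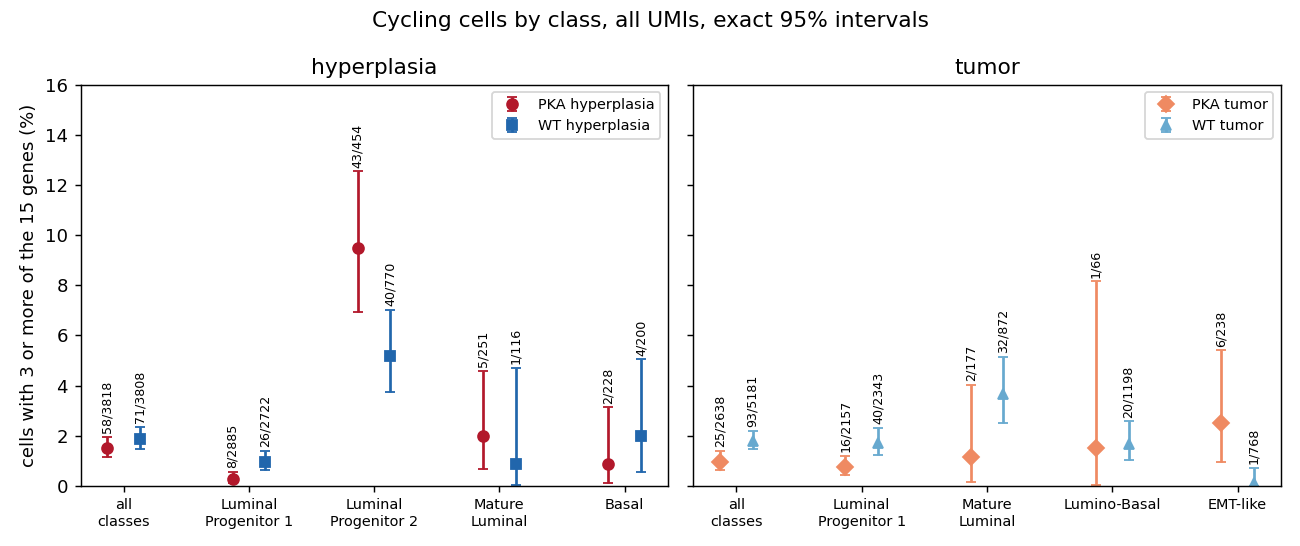
Share of annotated cells (y axis, percent) with 3 or more of the 15 genes, for all classes and for each of the authors' classes (x axis), in hyperplasia (left) and tumor (right). Points are single libraries counted on all UMIs, bars are exact 95% intervals of counting error, and the numbers are cycling cells over all cells of the class. Luminal Progenitor 2 stands highest in hyperplasia at 9.47% in PKA and 5.19% in WT.

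In hyperplasia the cycling cells were mostly of the class Luminal Progenitor 2. This class held 43 of the 58 cycling cells in PKA hyperplasia and 40 of the 71 in WT hyperplasia. Among the depth-matched cells with none of the 15 genes it held 12.1% in PKA (7 of 58) and 22.5% in WT (16 of 71). The share of Luminal Progenitor 2 among cycling cells was thus 6.14 times that among their matches in PKA hyperplasia (2.74 to 16.2) and 2.5 times in WT hyperplasia (1.37 to 4.78). Counted within the class, 9.47% of Luminal Progenitor 2 cells were cycling in PKA (43 of 454, 6.94 to 12.5%), against 5.19% in WT (40 of 770, 3.74 to 7.01%), a fold of 1.82 (1.16 to 2.88). With thinning to 2000 UMIs the shares were 10.5% in PKA and 6.94% in WT, and the interval of that fold, 0.883 to 2.58 around 1.51, held 1. The class Luminal Progenitor 1, the most numerous in both libraries, showed the reverse order: 0.277% were cycling in PKA (8 of 2885, 0.120 to 0.546%), against 0.955% in WT (26 of 2722, 0.625 to 1.40%), a fold of 0.290 (0.114 to 0.660), which with thinning was 0.425 (0.134 to 1.18). Luminal Progenitor 2 made up 11.9% of PKA hyperplasia cells and 20.2% of WT hyperplasia cells. The PKA class shares applied to the WT class makeup gave 2.22%, against the 1.86% observed in WT. In the reverse direction, the WT class shares applied to the PKA class makeup gave 1.52%, against the 1.52% observed in PKA.

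The other hyperplasia classes held few cycling cells. They were 5 of 251 Mature Luminal cells in PKA (1.99%, 0.650 to 4.59%), against 1 of 116 in WT (0.862%, 0.0218 to 4.71%), and 2 of 228 Basal cells in PKA, against 4 of 200 in WT. Krt14 and Krt5, the basal keratins, had no UMI in any of the 4 WT Basal cells, whereas Snai2 had a UMI in 1 of them and Acta2 had 7 UMIs and 1 UMI in a pair. A pair of them, with 1161 and 2817 total UMIs, held UMIs of all 4 endothelial markers Pecam1, Cdh5, Kdr and Emcn (12 and 13 UMIs together by cell) and none of the epithelial genes Epcam, Krt8 and Krt18. The other pair held Epcam, Krt8 and Krt18 together with the fibroblast collagen gene Col1a2, and 1 of those cells had 30 UMIs of the pericyte gene Rgs5 and 61 of Fabp4, a fatty acid carrier of adipocytes and capillaries. Elsewhere the epithelial label held: Epcam, the epithelial adhesion molecule, had a UMI in 96.6%, 93.0%, 100% and 100% of cycling cells of PKA and WT hyperplasia and PKA and WT tumor, and the defining immune markers Ptprc, Cd3e, Cd79a and C1qa had none in any cycling cell. Over the whole immune list, which adds Cd74, Lyz2, Tyrobp and Cd52, 1.72%, 9.86%, 4% and 6.45% of cycling cells had a UMI, against 3.45%, 9.86%, 12% and 6.45% of the depth-matched cells with none of the 15 genes.

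The tumor annotation has no Luminal Progenitor 2 class. In PKA tumor 16 of 25 were Luminal Progenitor 1, 6 EMT-like, 2 Mature Luminal and 1 Lumino-Basal. In WT tumor 40 of 93 were Luminal Progenitor 1, 32 Mature Luminal, 20 Lumino-Basal and 1 EMT-like. Luminal Progenitor 1 cells were cycling at 0.742% in PKA tumor (16 of 2157, 0.425 to 1.20%), against 1.71% in WT tumor (40 of 2343, 1.22 to 2.32%). The fold was 0.434 (0.227 to 0.793), and with thinning it was 0.422 (0.182 to 0.905). Mature Luminal cells were cycling at 1.13% in PKA tumor (2 of 177, 0.137 to 4.02%), against 3.67% in WT tumor (32 of 872, 2.52 to 5.14%), with overlapping intervals. EMT-like cells went the other way, at 2.52% in PKA tumor (6 of 238, 0.931 to 5.41%), against 0.13% in WT tumor (1 of 768, 0.00330 to 0.723%). The class was deeper in PKA tumor, with a median of 4135 UMIs, against 2860 in WT tumor. With thinning to 2000 UMIs the shares were 1.84% (4 of 217, 0.504 to 4.65%) and 0% (0 of 608, 0 to 0.605%), with overlapping intervals. The cells labelled EMT-like did not carry their defining markers Trim29 and Cldn6, which had no UMI in the class in either tumor, while Sox4 had a UMI in 4 of the 6 PKA cells and Vim in 1.

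The makeup of cycling cells in WT tumor was also set against cells of the same depth. The annotation uses other classes in tumor than in hyperplasia, so the makeups of these stages cannot be compared as a whole. Mature Luminal cells were 34.4% of cycling cells and 19.4% of their matches in WT tumor, a fold of 1.78 (0.968 to 3.36). Lumino-Basal cells were 21.5% of cycling cells and 44.1% of their matches, a fold of 0.488 (0.271 to 0.852), which was 0.942 with no match on depth. Luminal Progenitor 1 cells were 43.0% of cycling cells and 31.2% of their matches, with an interval of the fold that held 1 (0.834 to 2.31). The 32 cycling Mature Luminal cells of WT tumor had UMIs of hormone-lineage genes: Prlr, the prolactin receptor, had a UMI in all 32, Foxa1, a partner factor of the estrogen receptor, in 30, and Pgr, the progesterone receptor, in 15. Gpx3 had a UMI in 14 of them and the estrogen receptor gene Esr1 in 10. Their Foxa1 level was 537 CPM (the UMIs of a gene scaled to a total of 1000000 over the cells summed), against 429 CPM in the 840 other Mature Luminal cells. Other genes of the class were lower in cycling cells: Prlr had 982 CPM, against 1777 CPM, Gpx3 726 CPM, against 1985 CPM, and Pgr 101 CPM, against 156 CPM. Esr1 had 54.5 CPM, against 58.8 CPM. The mature luminal list summed to 6950 CPM in these 32 cells, against 12187 CPM in depth-matched Mature Luminal cells with none of the 15 genes, a log2 ratio of -0.81 (-0.90 to -0.72).

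**Figure D2:**
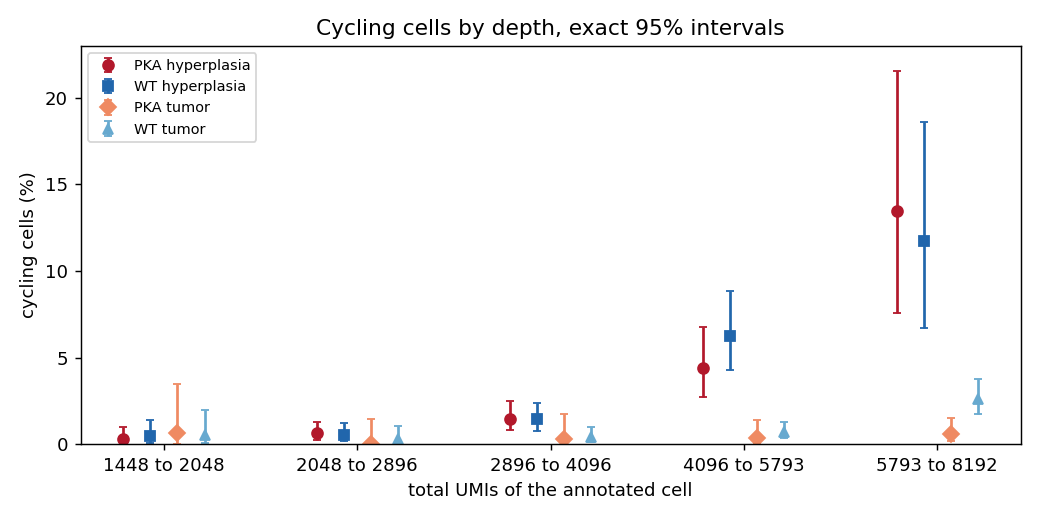
Share of cycling cells (y axis, percent) by the total UMIs of the annotated cell (x axis), with exact 95% intervals of counting error, for the 4 libraries. In the bin of 5793 to 8192 UMIs, the deepest that all 4 libraries share, the share is 13.5% in PKA hyperplasia, 11.7% in WT hyperplasia, 0.594% in PKA tumor and 2.62% in WT tumor. This bin holds the deepest annotated cells of hyperplasia but not those of tumor.

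The share of cycling cells was read by bins of total UMIs. Of cells with 5793 to 8192 UMIs, 13.5% were cycling in PKA hyperplasia (14 of 104, 7.56 to 21.6%) and 11.7% in WT hyperplasia (15 of 128, 6.71 to 18.6%). In the same bin 0.594% were cycling in PKA tumor (4 of 673, 0.162 to 1.51%), against 2.62% in WT tumor (27 of 1031, 1.73 to 3.79%). The bin holds the deepest annotated cells of hyperplasia but not those of tumor, so between stages it compares unlike parts of the libraries. With thinning to 2000 UMIs, the tumor over hyperplasia fold was 0.419 in PKA (0.215 to 0.777) and 0.608 in WT (0.402 to 0.921). Within Luminal Progenitor 1 it was 1.76 (0.579 to 5.89) and 1.77 (0.890 to 3.66), with intervals that held 1. From 1448 to 2048 UMIs, all 4 libraries lay between 0.274% and 0.629%. The annotation itself stopped at 6949, 7237, 19742 and 12538 UMIs in PKA and WT hyperplasia and PKA and WT tumor, and the filter is not stated. Above those values the count files held 86, 78, 9 and 45 further barcodes, of which 23, 27, 1 and 23 met the rule, or 26.7%, 34.6%, 11.1% and 51.1%. With all barcodes of at least 2000 UMIs taken in, annotated or not, and thinned, the share was 0.609% in PKA tumor (15 of 2462), against 1.44% in WT tumor (69 of 4798), a fold of 0.424 (0.225 to 0.748). In hyperplasia it was 2.10% in PKA (58 of 2756), against 2.40% in WT (67 of 2797), a fold of 0.879 (0.607 to 1.27). Whether such barcodes are single large cells or pairs of cells was not tested.

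**Figure D3:**
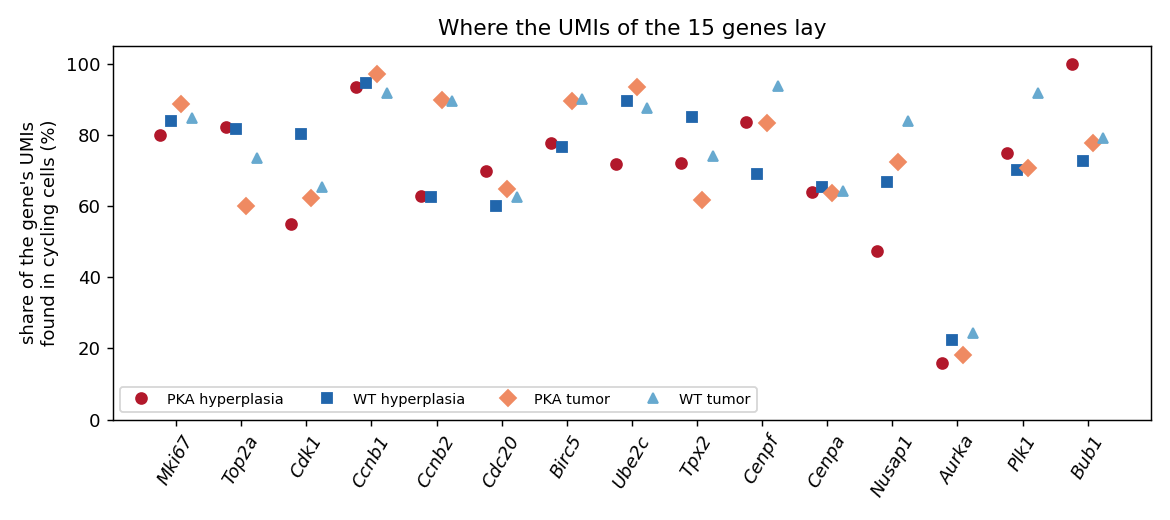
Share of each gene's UMIs in annotated cells that lay in cycling cells (y axis, percent), for the 15 genes of the rule (x axis) and the 4 libraries. Aurka lies at 16.0 to 24.4%, below the 47.4 to 100% of the other 14 genes.

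The 15 genes chose the cells, so their levels in cycling cells are a description. Birc5, the survivin gene, was the gene seen in the most cycling cells, in 86.2%, 77.5%, 88.0% and 86.0% of those of PKA and WT hyperplasia and PKA and WT tumor. Mki67 had a UMI in 60.3%, 50.7%, 56.0% and 46.2% of them, and Bub1 in 3.45%, 9.86%, 24% and 18.3%. For 14 of the 15 genes, between 47.4% (Nusap1 in PKA hyperplasia) and 100% of a gene's UMIs fell in cycling cells. Aurka, the kinase that matures spindle poles, was the exception, with 16.0%, 22.2%, 18.1% and 24.4% of its UMIs in cycling cells. Cells with Aurka and no other gene of the rule were most frequent in the Mature Luminal class. Of Mature Luminal cells with none of the other 14 genes, 16.5%, 16.8%, 13.9% and 15.3% held an Aurka UMI in the 4 libraries, against at most 0.939%, 1.5%, 3.51% and 1.46% in any other class. No other gene of the rule reached more than 4.41% in Mature Luminal cells without its partners. Aurka lies on chr2:172356190-172370535 on the minus strand in GENCODE vM21 (GRCm38), and its window above holds 1 TTTGAA, 32 bases after the start site. Leaving Aurka out of the rule removed 1, 0, 1 and 2 cycling cells, of which 1 in PKA tumor and 2 in WT tumor were Mature Luminal.

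S phase genes were not used to choose the cells, and most cycling cells carried them. With each cell thinned to 2000 UMIs, 3 or more of 53 S phase genes had a UMI in 76.4% of cycling cells of PKA hyperplasia (42 of 55), 81.5% in WT hyperplasia (53 of 65), 68.0% in PKA tumor (17 of 25) and 71.4% in WT tumor (65 of 91). In the depth-matched cells with none of the 15 genes the shares were 5.45%, 21.5%, 4.00% and 15.4%. The median cycling cell held 23.6, 40.4, 27.6 and 30.2 S phase UMIs per 10000, against 4.91, 5.49, 5.06 and 6.54 in cells with none. The cells differed among themselves by class. In WT tumor the median was 69.2 per 10000 in the 32 Mature Luminal cells, 39.0 in the 40 Luminal Progenitor 1 cells and 13.1 in the 20 Lumino-Basal cells. The Lumino-Basal cells also carried the fewest UMIs of 8 late mitotic genes of the rule (Cdc20, Ccnb1, Plk1, Cenpf, Aurka, Tpx2, Ube2c and Bub1), with a median of 2.36 per 10000, against 9.85 in Luminal Progenitor 1 and 5.91 in Mature Luminal cells, and their median number of rule genes was 4.5, against 8 and 6.5. Their total UMIs were the highest of the 3 classes, at a median of 10006.5, against 8523.5 in Luminal Progenitor 1 and 7065.5 in Mature Luminal cells. With thinning to 2000 UMIs, cycling Lumino-Basal cells of WT tumor were 7 of 1105 (0.633%), against 20 of 1198 (1.67%) with all UMIs.

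**Figure D4:**
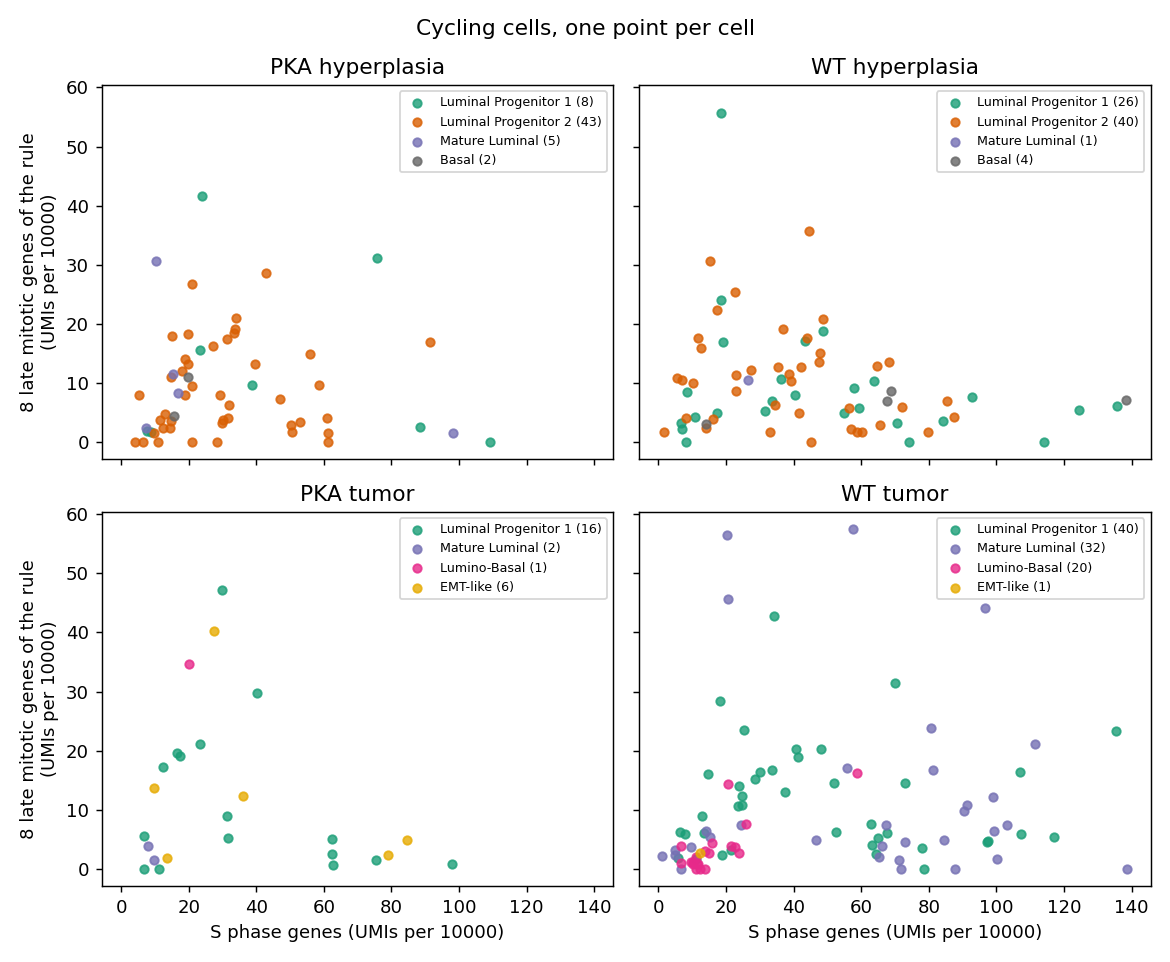
Each point is 1 cycling cell, with its UMIs per 10000 of 53 S phase genes (x axis) and of 8 late mitotic genes of the rule (y axis), coloured by the authors' class, with 1 panel for each library. The Lumino-Basal cells of WT tumor have the lowest medians of the 3 larger classes there, at 13.1 on the x axis and 2.36 on the y axis.

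S phase and late mitotic UMIs were only weakly related within a library. Spearman's rho over cells was 0.13 (58 cells), -0.16 (71), -0.06 (25) and 0.33 (93) in PKA and WT hyperplasia and PKA and WT tumor. These points share a library and a total-UMI denominator, and are given as a description only.

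Genes outside the rule were then compared by summing the UMIs of cycling cells and of their depth-matched cells, as log2 ratios of CPM with 10 CPM added, for genes with at least 20 UMIs in the 2 sums together. At least 2-fold higher in cycling cells were 8.81%, 7.39%, 12.7% and 5.37% of genes in PKA and WT hyperplasia and PKA and WT tumor, and 4.84%, 3.43%, 8.45% and 3.15% were at least 2-fold lower. Since the cells were chosen on genes of the same cells, these are descriptions. In all 4 libraries at once, 67 of 3506 genes (1.91%) were at least 2-fold higher and 12 (0.342%) lower.

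Most of the 15 genes with the largest ratios were other division genes. Pclaf, the PCNA-associated factor that works at replication forks, had 296, 430, 218 and 300 CPM in cycling cells of PKA and WT hyperplasia and PKA and WT tumor and no UMI in any matched cell, so that it was at least 26.0-, 45.7-, 19.3- and 74.7-fold higher against 3 UMIs over the matched cells. It had a UMI in 58.6%, 59.2%, 56.0% and 64.5% of cycling cells. Cdca3, a trigger of mitotic entry, had 388, 229, 244 and 289 CPM in cycling cells, against 11.4, 3.14, 0 and 4.01 CPM in matched cells. Rrm2, the ribonucleotide reductase subunit that limits DNA precursors, had 148, 154, 154 and 230 CPM, against 3.80, 0, 0 and 2.68 CPM. Ccna2, the cyclin A of S and G2 phases, had 95, 148, 131 and 143 CPM, against 0, 0, 0 and 1.34 CPM. The kinetochore genes Cenpm and Spc24, the kinase Pbk, the chromosomal passenger Cdca8, the phosphatase Cdkn3, the spindle protein Knstrn, the cytokinesis genes Racgap1 and Cit, the reductase subunit Rrm1 and Lockd, a long noncoding RNA next to Cdkn1b, completed the 15 highest with Rbp7. Medians over the 4 libraries ran from 3.13 for Cit to 4.95 for Pclaf on the log2 scale.

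Rbp7, a cytosolic retinoid-binding protein gene on chr4:149449687-149454978 (minus strand), is not known as a division gene. It had 209, 148, 364 and 322 CPM in cycling cells of PKA and WT hyperplasia and PKA and WT tumor, against 11.4, 9.42, 15 and 12 CPM in matched cells. It had a UMI in 20 of 58, 26 of 71, 16 of 25 and 30 of 93 cycling cells, against 3, 3, 4 and 6 of as many matched cells. The cells with Rbp7 differed by class: 24 of 40 cycling Luminal Progenitor 1 cells of WT tumor had a UMI, 5 of 20 Lumino-Basal cells and none of the 32 Mature Luminal cells. Of the 241 Rbp7 UMIs in cycling cells of WT tumor, 1 Luminal Progenitor 1 cell held 98. In PKA tumor all 6 cycling EMT-like cells and 9 of 16 Luminal Progenitor 1 cells had one. In hyperplasia 18 of 43 cycling Luminal Progenitor 2 cells had one in PKA and 18 of 40 in WT, against 7.06% and 3.82% of Luminal Progenitor 2 cells with none of the 15 genes. Matched on class as well as depth, the median log2 ratio of Rbp7 over the libraries was 3.00, against 3.63 without the class.

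**Figure D5:**
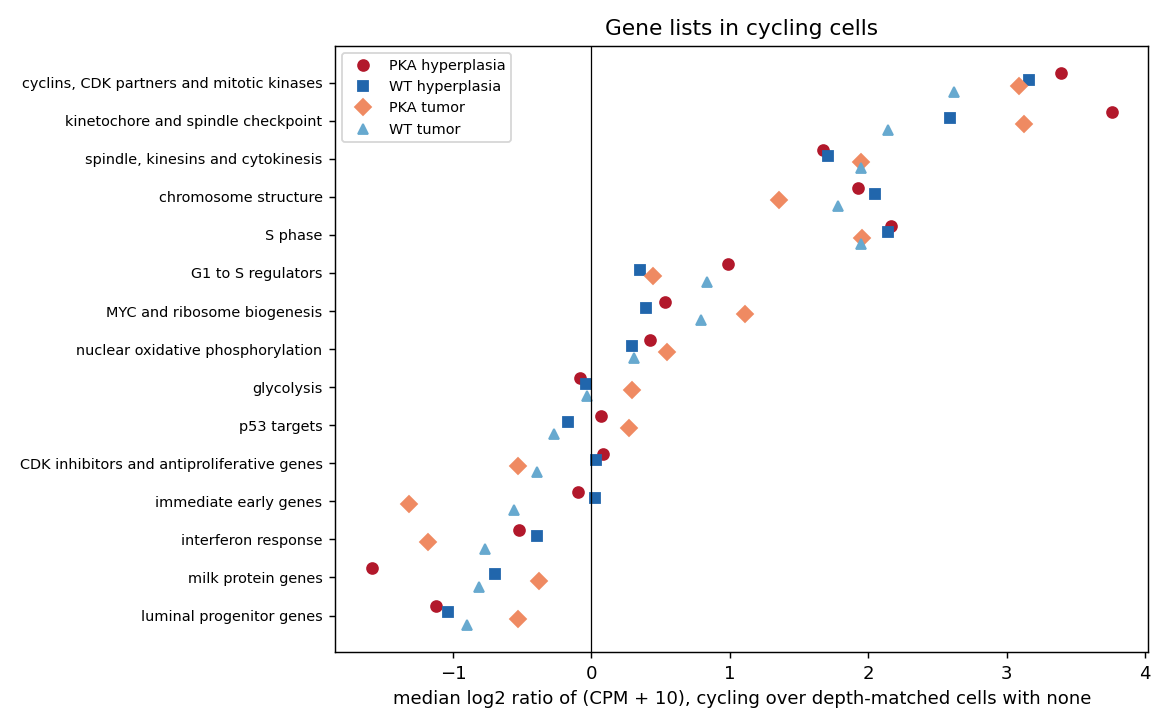
Median log2 ratio of (CPM + 10), cycling cells over depth-matched cells with none of the 15 genes (x axis), over the measured genes of 15 lists (y axis), for the 4 libraries. The S phase list and the 4 mitotic lists lie between 1.35 and 3.76 and the luminal progenitor genes between -1.13 and -0.53.

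Division genes outside the rule were read by lists. Of 53 S phase genes in the files, 15, 32, 22 and 43 had at least 20 UMIs, and 13, 27, 19 and 38 of these were at least 2-fold higher in cycling cells of PKA and WT hyperplasia and PKA and WT tumor, with none at least 2-fold lower. Their medians were 2.16, 2.14, 1.95 and 1.94, against 0.14, 0.10, 0.17 and 0.06 over all genes measured. Most of these genes had fewer than 20 UMIs in the matched cells and reached the minimum with those of the cycling cells, so the counts are no support for the difference. Dut, which removes dUTP, had 167, 418, 248 and 389 CPM, against 19.0, 37.7, 41.3 and 42.8 CPM in matched cells. Hells, Gmnn, Lig1 and the helicase subunit Mcm5 were above 2-fold wherever they were measured, as was Tyms. The 4 lists of cyclins and kinases, kinetochore, spindle and chromosome structure genes held 90 genes in the files, and 24 of 30, 35 of 42, 26 of 35 and 55 of 65 measured genes were at least 2-fold higher, against the 8.81%, 7.39%, 12.7% and 5.37% of all genes. Most of these too had fewer than 20 UMIs in the matched cells, so their counts are no support either. In WT hyperplasia 2 of the 10 measured spindle genes, the tubulins Tuba1c and Tubb6, were at least 2-fold lower, with log2 ratios of -1.11 and -1.20. With a minimum of 50 UMIs the median of the spindle list turned sign in both hyperplasia libraries. The chromatin genes H2afx and Smc2 were among them, with log2 ratios of 2.19 to 2.90 and 2.05 to 3.74. Several genes such as Cks2, Hmgb1 and Gapdh had few UMIs in all 4 libraries, as can happen for genes with near-identical copies, and are uncertain here.

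Of the measured G1 to S regulators, which permit entry into S phase, 1 of 3, 0 of 4, 1 of 4 and 3 of 9 were at least 2-fold higher, against 8.81%, 7.39%, 12.7% and 5.37% of all genes, and 1 of 4 in PKA tumor was at least 2-fold lower. Cdk4, the partner of cyclin D, had 551, 518, 491 and 633 CPM in cycling cells of PKA and WT hyperplasia and PKA and WT tumor, against 274, 383, 244 and 377 CPM in matched cells, log2 ratios of 0.98, 0.43, 0.98 and 0.73. Ccnd1, cyclin D1, had 141, 141, 161 and 215 CPM, against 45.6, 122, 33.8 and 116 CPM, and was past 2-fold in both PKA libraries (1.44 and 1.97) and not in the WT libraries (0.19 and 0.83), a difference that was not tested. Matched on class as well, 0 of 3 measured genes of the list in PKA hyperplasia and 0 of 4 in PKA tumor were at least 2-fold higher. Ccnd1 was thus below 2-fold there in both PKA libraries. In WT hyperplasia and WT tumor 0 of 4 and 2 of 9 were higher. The CDK inhibitor Cdkn1a, the p53 target p21, had 270, 525, 109 and 278 CPM in cycling cells, against 255, 355, 244 and 422 CPM, with log2 ratios of 0.08, 0.55, -1.10 and -0.58. Over the list of p53 targets the medians were 0.07, -0.17, 0.27 and -0.27, and the first of these was -0.13 with TMM factors. Cdkn2d, which inhibits Cdk4 and Cdk6, was higher in cycling cells of both tumors, with 71.3 CPM in PKA cells against 11.3 CPM in their matches, and 97.7 CPM in WT cells against 17.4 CPM in theirs. Its list of CDK inhibitors and antiproliferative genes had medians of 0.08, 0.03, -0.53 and -0.40. With TMM factors both hyperplasia medians were -0.12. Of its measured genes 0 of 5, 0 of 5, 1 of 8 and 3 of 12 were at least 2-fold higher, with 1, 0, 2 and 0 lower. Over all genes 4.84%, 3.43%, 8.45% and 3.15% were lower.

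The 15 genes with the lowest ratios included Ltf. Ltf, the milk and granule protein lactoferrin, had 98.8, 25.1, 131 and 179 CPM in cycling cells of PKA and WT hyperplasia and PKA and WT tumor, against 878, 245, 1430 and 1429 CPM in matched cells, and was 8.88-, 9.75-, 10.9- and 7.97-fold lower. Matched on class as well, its median log2 ratio was -1.17, against -2.98 without the class. Spp1, the secreted phosphoprotein osteopontin, had 631, 81.7, 386 and 606 CPM, against 1592, 1105, 2991 and 1801 CPM. The lysosomal protease Ctsl, with 167, 122, 173 and 119 CPM, against 726, 550, 822 and 399 CPM, kept its median ratio of -2.07 at -2.01 when class was matched. The protease inhibitors Slpi and Wfdc12, the chemokine Cxcl2, the copper carrier Cp, the acute-phase genes Saa1 and Lrg1, Chil1, the lipopolysaccharide receptor Cd14, Krt14, Anxa1, the cytokine Lif and the microRNA host Mir22hg completed the 15 lowest, with medians between -3.50 and -1.57. Wfdc12 had a UMI in only 5, 3, 12 and 6 matched cells and Cxcl2 in 5, 3, 3 and 11, so their medians rest on few cells. Matched on class as well, these medians were -2.14 and -2.02, against -3.50 and -2.80.

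The luminal progenitor list as a whole had medians of -1.13, -1.04, -0.53 and -0.90 in PKA and WT hyperplasia and PKA and WT tumor. Of its measured genes 6 of 10, 6 of 11, 4 of 11 and 5 of 11 were at least 2-fold lower. The shares over all genes were 4.84%, 3.43%, 8.45% and 3.15%. In WT tumor 1 of the 11 was at least 2-fold higher. Matched on class, the PKA hyperplasia median was -0.11 and those of the other libraries were -1.08, -1.02 and -0.81. Within Luminal Progenitor 2 cells of PKA hyperplasia, the summed list was 21592 CPM in cycling cells and 23513 CPM in cells with none. In WT hyperplasia the same class held 15299 CPM in cycling cells and 32925 CPM in cells with none. Within Luminal Progenitor 1 the sums were 14234 CPM and 40315 CPM in WT hyperplasia, 31133 CPM and 54237 CPM in PKA tumor and 25929 CPM and 46475 CPM in WT tumor, in cycling cells and cells with none. The luminal keratins Krt8 and Krt18 had lower CPM in cycling cells of all 4 libraries, with log2 ratios of -1.44 to -0.40 and -1.54 to -0.60, whereas Epcam lay between -0.37 and 0.03.

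Immediate early genes, which dissociation as well as growth signals induce, had medians of -0.10 in PKA hyperplasia and 0.02 in WT hyperplasia (-0.12 with TMM factors), and -1.32 in PKA tumor and -0.56 in WT tumor. Of 14 measured in each tumor, 9 were at least 2-fold lower in cycling cells of PKA tumor and 2 in WT tumor, against 8.45% and 3.15% of all genes. Fos had 4024 CPM in cycling cells and 7448 CPM in matched cells of PKA tumor, and 4108 CPM and 5388 CPM in WT tumor. Glands and tumors were digested by different protocols, so stage and protocol cannot be told apart. Interferon-response genes had medians of -0.53, -0.39, -1.18 and -0.77 in PKA and WT hyperplasia and PKA and WT tumor. At least 2-fold lower were 3 of 11, 1 of 9, 8 of 13 and 5 of 13 of them, against 4.84%, 3.43%, 8.45% and 3.15% of all genes, and 1 of 9 in WT hyperplasia was at least 2-fold higher. Rsad2, an antiviral enzyme, had 22.5 CPM in cycling cells and 919 CPM in matched cells of PKA tumor, and 5.35 CPM and 83.0 CPM in WT tumor.

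Among growth and energy genes, Ncl, the nucleolar protein nucleolin, had 676, 898, 814 and 1044 CPM in cycling cells of PKA and WT hyperplasia and PKA and WT tumor, against 319, 675, 371 and 527 CPM in matched cells. Srm, spermidine synthase, had 236 CPM in cycling cells and 37.5 CPM in matched cells of PKA tumor, and 219 CPM and 89.7 CPM in WT tumor. The list of MYC and ribosome biogenesis genes had medians of 0.53, 0.40, 1.11 and 0.79, that of glycolysis genes -0.08, -0.04, 0.30 and -0.04, and that of nuclear oxidative phosphorylation genes 0.42, 0.29, 0.55 and 0.31. Over all genes 8.81%, 7.39%, 12.7% and 5.37% were at least 2-fold higher in the 4 libraries, and 4.84%, 3.43%, 8.45% and 3.15% lower. Beside these, 2 of 8, 0 of 9, 5 of 9 and 3 of 12 of the MYC list were at least 2-fold higher, with 0, 1, 0 and 0 lower. Of the glycolysis list 1 of 11, 0 of 11, 2 of 10 and 0 of 11 were higher, with 1, 2, 0 and 0 lower. Of the oxidative phosphorylation genes 0 of 22, 0 of 23, 4 of 24 and 0 of 23 were at least 2-fold higher, and none was lower. TMM factors shifted the median of all genes by -0.19, -0.13, -0.11 and -0.05, and with them the oxidative phosphorylation medians were 0.22, 0.14, 0.42 and 0.24. The mitochondrial share of UMIs was 3.48%, 3.44%, 2.26% and 1.83% in the median cycling cell, against 1.85%, 1.87%, 1.65% and 1.71% in its matches, and 3.08%, 2.24%, 1.81% and 1.74% in matches of the same class. Its part in the gene ratios was not tested.

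Between genotypes, cycling cells of PKA hyperplasia were set against those of WT hyperplasia, with the same ratio in their depth-matched cells beside it. At least 2-fold higher in PKA were 2.57% of 4792 genes and 2.88% lower. Casein genes were among the lowest. Csn2, beta-casein, had 11.4 CPM in PKA cycling cells, from 2 cells, against 1018 CPM in WT cycling cells, from 9 cells, and 26.6 CPM in PKA matched cells, against 955 CPM in WT matched cells. Csn1s1 had 91.2 CPM in PKA and 927 CPM in WT cycling cells, and Csn1s2a 38.0 and 452 CPM. Pgls, an enzyme of the pentose phosphate pathway, had 76.0 CPM in PKA, with a UMI in 17 of 58 cells, against 402 CPM in WT, with a UMI in 59 of 71 cells. Chchd10, a mitochondrial protein gene, had 118 CPM in PKA (21 of 58 cells), against 559 CPM in WT (58 of 71 cells). The matched cells showed the same order for Pgls, with 83.6 CPM in PKA and 327 CPM in WT, and for Chchd10, with 45.6 and 273 CPM. Fabp4 had no UMI in PKA and 61 UMIs in 1 WT cell, the cell with Rgs5 described above. Also lower in PKA were Hp, Atf3, Serpinh1, Pradc1 and Cryab, with log2 ratios of -2.0 to -1.64. Serpinh1 was at -1.89, at -1.07 without the WT cells that held non-epithelial markers, and at -0.72 within Luminal Progenitor 2. Within Luminal Progenitor 1, Cryab was at -0.27 and Csn1s2a at -1.16, against -3.27 for Csn1s2a over all cycling cells.

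Of the genes higher in PKA hyperplasia, Acta2 had a UMI in 6 of the 58 cycling cells and Lalba in 37. Cited1, a mature luminal co-regulator, had 471 CPM in PKA cycling cells from 7 cells, against 9.42 CPM in WT from 1 cell, while matched cells had 209 CPM in PKA and 135 CPM in WT. Within Luminal Progenitor 2 its log2 ratio was 0.58, against 4.63 over all cycling cells. Fam25c and Acta2, smooth muscle actin of contractile cells, had ratios of 4.00 and 3.14 that turned to -0.09 and -1.12 within Luminal Progenitor 2. The milk gene Lalba had 1520 CPM in PKA cycling cells, against 352 CPM in WT, and Saa1 1611 CPM, against 317 CPM. Saa1 was seen in 27 of 58 PKA cells and 15 of 71 WT cells, and its matched cells had 7435 CPM in PKA, against 995 CPM in WT. Ly6a, a progenitor surface antigen, had 319 CPM in PKA (18 cells), against 18.8 CPM in WT (3 cells), and 824 CPM, against 104 CPM, in matched cells. Wfdc2 and AW112010 turned sign within Luminal Progenitor 1, from 3.82 and 2.70 over all cycling cells to -1.03 and -0.88, and Scgb1b27, a secretoglobin, from -1.68 to 1.95. Spp1, Ptn, Gstt3 and Saa2 were the others of the 12 highest, with ratios of 2.03 to 2.81. Within Luminal Progenitor 2 these were 0.20 for Spp1, 0.00 for Ptn, 1.59 for Gstt3 and 1.22 for Saa2. The S phase list had a median of -0.45 and the 4 mitotic lists -0.28 in PKA over WT, against 0.01 over all genes.

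In tumors, 3.63% of 6892 genes were at least 2-fold higher in PKA over WT cycling cells and 5.35% lower, from 25 cells against 93. Saa1 had 653 CPM in PKA tumor, with a UMI in 13 of 25 cells, against 1.34 CPM and 1 of 93 cells in WT tumor, and 1962 CPM in PKA, against 89.7 CPM in WT, in matched cells. Lalba had 2438 CPM in PKA cycling cells (20 cells), against 302 CPM in WT (19 cells), and 3249 CPM, against 397 CPM, in matched cells. H2-Q7, a class Ib histocompatibility gene, had 379 CPM in PKA (19 cells), against 64.2 CPM in WT (28 cells), and 229 CPM, against 26.8 CPM, in matched cells. Some genes ran against their matched cells. G0s2, an inhibitor of fat breakdown first described at the exit from G0, had 893 CPM in PKA cycling cells (17 of 25 cells), against 136 CPM in WT (32 of 93 cells), whereas matched cells had 18.8 CPM in PKA, against 127 CPM in WT. Scgb2b27 had 1766 CPM in PKA cycling cells (8 cells), against 120 CPM in WT (29 cells), and 109 CPM, against 2192 CPM, in matched cells. Scgb1b27 and Car6 had the same pattern, but 2 cells gave all 423 Scgb1b27 UMIs of PKA tumor. Tspan8, Apod, Saa2, Chil1 and Slpi were the others of the 12 highest, and Slpi was at -0.01 within Luminal Progenitor 1, against 2.11 over all cycling cells. Tspan8 was at 0.53 there, against 2.09, Chil1 at 1.52, against 2.99, and Apod at 2.70, against 4.28.

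The Mature Luminal and Lumino-Basal classes held 3 of the 25 cycling cells of PKA tumor, against 52 of 93 in WT tumor. Foxa1 had 11.3 CPM in PKA cycling cells (2 cells), against 173 CPM in WT (31 cells). Il33 and Pcp4 had no UMI in PKA cycling cells, against 209 CPM (21 cells) and 167 CPM (14 cells) in WT, and were at least 18.6- and 14.9-fold lower against 3 UMIs over the PKA cells. Within Luminal Progenitor 1 both genes had no UMI in either tumor. Krt17, Gpx3, Crabp1, Glul, R3hdml, Mcub and Ly6a were also lower, and Crabp1 was at 0.63 within Luminal Progenitor 1. Gpx3 was at -1.03 there, Glul at -1.16, Ly6a at -1.34 and Mcub at -0.72, against -3.35, -3.02, -3.56 and -4.14 over all cycling cells. Reg3b had 122 UMIs in 1 WT cell. Dcn, the proteoglycan decorin of fibroblasts, had 18.8 CPM in PKA (1 cell), against 360 CPM in WT (15 of 93 cells), while the fibroblast collagens Col1a1, Col1a2 and Col3a1 had no UMI in these WT cells. The mature luminal list had a median of -1.58 in tumor and 2.03 in hyperplasia, and of -1.31 and 0.71 in matched cells. The S phase list had a median of -0.28 and the 4 mitotic lists -0.10, against -0.08 over all genes. Of the list of PKA pathway genes, 0 of 9 measured in hyperplasia were at least 2-fold apart between PKA and WT cycling cells, with a median of 0.15. Over all genes there, 2.57% were higher and 2.88% lower. In tumor 11 were measured, of which 1 was at least 2-fold higher and 1 lower, with a median of -0.02. Over all genes in tumor, 3.63% were higher and 5.35% lower. Counts this small do not set the list apart from all genes. The phosphodiesterase gene Pde4b was higher, with 128 CPM in PKA tumor, against 48.2 CPM in WT tumor, and the anchoring protein gene Akap13 was lower, with 15 CPM, against 42.8 CPM. The catalytic subunit gene Prkaca had 101 CPM in PKA tumor, against 112 CPM in WT tumor, and the regulatory subunit gene Prkar1a 274 CPM, against 278 CPM, with intervals of the log2 ratio from -0.83 to 0.49 and from -0.43 to 0.37.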

How the data were processed

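Raw UMI counts per gene and barcode were deposited by the authors, with per-cell tables of UMI and gene counts, the fraction of mitochondrial UMIs as deposited, and a cell class. Counts came from 10x Chromium 3′ libraries. Cell Ranger, STAR 2.5.3a, featureCounts and Subread 1.6.0 are named in the submitters' processing notes with GRCm38. Per the labels, cells were sorted by FACS, by a gate the labels do not state. Total annotated counts were 10648097, 10797950, 16758734 and 24499374 UMIs in PKA and WT hyperplasia and PKA and WT tumor.

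The members and gene lists were chosen with earlier results of these data known. Each cycling cell was matched 1 to 1 on total UMIs within 10% to a cell of its library with none of the 15 genes. UMIs were summed per library and group of cells and scaled to CPM. Genes with fewer than 20 UMIs were left out, and 10 CPM were added before log2. Genes at least 2-fold apart were counted. No test was made, with 1 library per group. Intervals are 95% Clopper-Pearson for shares and conditional binomial for ratios; they cover counting error only, and a share of 0 allows 3 cells. Named genes were the 15 highest and 15 lowest median ratios of one sign in all 4 libraries, at 50 CPM or more in 3 libraries, and the 12 highest and 12 lowest PKA over WT ratios at 100 CPM or more, without mitochondrial, ribosomal, haemoglobin, predicted and sex-linked marker genes. Alternatives changed the rule, thinning, matching, scaling (TMM of edgeR 4.0.16), minimum and added CPM. The ratios were tested on simulated counts, and matching and thinning were checked on the deposited counts. Casc5, Sgol1, Fen1, Skp2, Areg, Pgam1 and Adipoq were not analysed here. Analyses used Python 3.11.15, NumPy 2.4.6, SciPy 1.17.1 and R 4.3.3.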

Additional observations from a re-analysis of the deposited data

Results flagged for a closer look

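Barcodes that the authors' annotation leaves out also met the rule: 25 in PKA hyperplasia, 29 in WT hyperplasia and 26 in WT tumor, above the 3 that a count of 0 allows. PKA tumor had 1. More UMIs than in any annotated cell were found in 23 of the 25 in PKA hyperplasia, 27 of the 29 in WT hyperplasia, 1 of 1 in PKA tumor and 23 of the 26 in WT tumor. An Epcam UMI was found in 23, 29, 1 and 25 of them.

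Several values of PKA over WT cycling cells pointed one way in tumor and the other way in hyperplasia, by at least 2-fold each. With 1 library per group the difference between stages was not tested. The log2 ratios that were negative in tumor were AW112010 -1.93 (2.70 in hyperplasia), Cited1 -1.42 (4.63), Crabp1 -3.30 (1.87), Glul -3.02 (1.13), Gpx3 -3.35 (2.11), Ly6a -3.56 (3.51), Ptn -2.07 (2.5), R3hdml -2.80 (2.20) and Wfdc2 -2.57 (3.82). Those positive in tumor were H2-Q7 2.39 (-1.01 in hyperplasia), Scgb1b27 6.83 (-1.68) and Serpinh1 1.68 (-1.89). Several of these changed within single classes. In hyperplasia Luminal Progenitor 2, AW112010 was at -0.92, Cited1 at 0.58 and Ptn at 0.00, while Ly6a stayed at 2.45. In hyperplasia Luminal Progenitor 1, Wfdc2 was at -1.03 and Scgb1b27 at 1.95, while Ptn was at 5.12. Crabp1 was at 0.63 within Luminal Progenitor 1 of tumor. The Scgb1b27 UMIs of PKA tumor came from 2 cells. The mature luminal list had a median of -1.58 in tumor and 2.03 in hyperplasia, beside 2 of 25 PKA and 32 of 93 WT cycling cells in tumor, and 5 of 58 PKA and 1 of 71 WT cycling cells in hyperplasia, that were of the Mature Luminal class.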

How the results depend on the processing

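The share of cycling cells depended on depth and on the number of genes asked for, since the rule needs several UMIs in one cell. With 2 of the 15 genes it was 2.17% in PKA hyperplasia, 2.39% in WT hyperplasia and 1.56% in WT tumor, and with 5 genes 0.674%, 0.625% and 0.547%. With 4 genes it was 1.18% in WT hyperplasia. With thinning to 1000 UMIs it was 0.642% in PKA hyperplasia, 0.677% in WT hyperplasia and 0.676% in WT tumor, and with 3000 UMIs 2.82%, 3.19% and 1.67%. With 1500 UMIs it was 1.21% in WT hyperplasia, and without thinning 1.80% in WT tumor. Weighted over bins of total UMIs shared by all libraries it was 3.51% in PKA and 3.65% in WT hyperplasia, and 0.341% in PKA and 0.794% in WT tumor. With all barcodes of at least 2000 UMIs, an alternative chosen after seeing the data, it was 2.10% in PKA hyperplasia, 2.40% in WT hyperplasia and 1.44% in WT tumor. Leaving out 1 gene of the rule at a time gave PKA over WT folds of 0.724 to 0.919 in hyperplasia and 0.465 to 0.676 in tumor. The fold of Luminal Progenitor 2 over other classes in WT hyperplasia was 4.70 at 3000 UMIs and 5.09 without thinning, against 9.79 at 2000 UMIs. The Lumino-Basal fold in WT tumor was 0.942 with no match on depth.

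The numbers of genes at least 2-fold apart followed the minimum of UMIs. Higher in cycling cells at 10 UMIs were 746 genes in PKA hyperplasia, 648 in WT hyperplasia and 944 in PKA tumor, and lower 318, 254 and 633. At 50 UMIs 119, 131, 239 and 271 were higher in PKA and WT hyperplasia and PKA and WT tumor, and 118, 93, 176 and 161 lower. With no minimum 1311, 946 and 1526 were higher in PKA hyperplasia, WT hyperplasia and PKA tumor, and 583, 385 and 1093 lower. With 50 CPM added 111, 124, 220 and 126 were higher in the 4 libraries and 92, 73, 178 and 72 lower. With 1 CPM added 720 were higher and 485 lower in WT tumor. TMM factors gave 239 higher and 310 lower in PKA hyperplasia and about 2.6e+02 lower in WT hyperplasia. Matching class as well gave 121 lower in PKA hyperplasia. Members of the S phase list at least 2-fold higher were 33 in PKA hyperplasia and 35 in PKA tumor at 10 UMIs, and 2, 7 and 4 in PKA hyperplasia, WT hyperplasia and PKA tumor at 50 UMIs, and 8 in PKA hyperplasia when cells needed 4 of the 15 genes. Of the 4 mitotic lists, 41 in PKA hyperplasia and 45 in PKA tumor were higher at 10 UMIs, and 13, 18, 10 and 33 in the 4 libraries at 50 UMIs. Of the spindle, kinesin and cytokinesis list 2 were higher at 50 UMIs in PKA hyperplasia and 2 in WT hyperplasia, and in both the sign of the list turned. The share of cycling cells with S phase genes was 90.8% in WT hyperplasia and 89.0% in WT tumor when 2 genes were asked for, 49.1%, 67.7% and 57.1% in PKA hyperplasia, WT hyperplasia and WT tumor with 5 genes, and 94.8%, 93.0%, 100% and 97.8% in the 4 libraries on all UMIs. On all UMIs the depth-matched cells with none of the 15 genes reached 31.0%, 43.7%, 88.0% and 82.8%. Without thinning the S phase share thus separated the groups little in tumors.

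Between genotypes, 203 genes were at least 2-fold higher in PKA over WT hyperplasia within Luminal Progenitor 2, and in tumor 395 were higher and 555 lower within Luminal Progenitor 1. The sign turned for Fam25c (-0.0903), Acta2 (-1.12) and AW112010 (-0.92) within Luminal Progenitor 2 of hyperplasia, for Wfdc2 (-1.03), AW112010 (-0.88) and Scgb1b27 (1.95) within Luminal Progenitor 1 of hyperplasia, and for Slpi (-0.0107) and Crabp1 (0.63) within Luminal Progenitor 1 of tumor. The causes were not tested. Of the values that answer a comparison, 289 stayed within their limits and 83 moved, and of the single values 543 stayed, 173 moved and 12 turned. No paired analysis was possible because each group has 1 library, and for the same reason no replicate could be left out. Depth limits the shares: a cell with few UMIs can hold the 15 genes unseen, and a share of 0 allows 3 cells.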
